A study of Mus musculus with 16 samples.

Results

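Desmosomes are the spot junctions that rivet neighbouring epithelial cells together. The 10 genes described here encode their core parts and were taken from the count table by symbol, as 10 of its 26357 genes: the desmogleins Dsg1a, Dsg2 and Dsg3, the desmocollins Dsc1, Dsc2 and Dsc3, plakoglobin (Jup), the plakophilins Pkp1 and Pkp3, and desmoplakin (Dsp). RNA from 16 mouse samples had been sequenced in 4 groups of 4. The groups were IL-23 with oral dosing, IL-23 with intraperitoneal dosing, vehicle with oral dosing and vehicle with intraperitoneal dosing. IL-23 is a cytokine that drives psoriasis-like inflammation of the skin, and the series' title names a psoriasiform dermatitis. In all 4 groups, controls included, the dosed item was a drug vehicle with 0 mpk of compound, so the routes differ in how an empty vehicle was given. The labels give no tissue, strain, age, sex or time, and nothing in them says that the samples of a group came from separate animals, so the p-values cover no more than the scatter among the libraries, which may be technical.

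In a desmosome, desmogleins and desmocollins are cadherins that span the membrane and bind those of the next cell. Plakoglobin and the plakophilins are armadillo-repeat proteins that gather at the cadherin tails, and desmoplakin ties them to the keratin filaments. In mouse and human epidermis the cadherins are layered: Dsg3 and Dsc3 are strongest in the basal layer, while Dsg1 and Dsc1 increase as keratinocytes differentiate toward the surface, and Dsg2 and Dsc2 are the forms found widely in simple epithelia.

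The 6 cadherin genes lie in a cluster on chromosome 18, within chr18:19960930-20604526 of GRCm38.p6 as RefSeq annotates it. Pkp1 lies at chr1:135871394-135919207 (minus strand), Pkp3 at chr7:141078229-141090511 (plus), Jup at chr11:100368856-100397839 (minus) and Dsp at chr13:38151294-38198577 (plus). Annotated genes on the other strand cover 3.99% of the exon bases of Dsg2 (Gm16090) and 5.17% of those of Dsp (Gm10129). The strand setting of the counting is not given in the sources used here, so reads from these stretches cannot be told apart.

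All 10 genes passed the filter on low counts, with 116 to 37769 counts per library. Totals were 6381990 to 10078531 counts in the IL-23 libraries and 7159325 to 14432930 in the vehicle libraries. Levels are given as CPM (reads scaled to a fixed library total) scaled with trimmed-mean (TMM) factors, and a gene was called changed below an adjusted p of 0.05 in edgeR's quasi-likelihood test, with Benjamini-Hochberg adjustment over the 14671 genes tested. The keratinocyte markers were abundant: those of basal cells (Krt5, Krt14, Krt15) summed to 18502 to 27807 CPM in IL-23 libraries and 14734 to 20387 CPM in vehicle libraries. Over both routes Krt14 and Krt5 were called higher (log2 0.89 and 0.30) and Krt15 lower, at 501 ± 61.6 CPM with IL-23 and 2169 ± 472 CPM with vehicle (SD, n = 8 each). Krt5 was not called in oral mice with TMM. It was also not called over both routes with plain library sizes or with a scaling to 9 epithelial genes. Those of suprabasal cells (Krt1, Krt10, Krtdap, Sbsn) summed to 19646 to 45193 CPM in IL-23 libraries and 7103 to 11560.1 CPM in vehicle libraries, and all 4 were called higher with IL-23. Markers of skeletal muscle (739 to 1476 CPM with IL-23 against 1658 to 3890.2 CPM with vehicle), adipocytes (18.9 to 51.0 CPM with IL-23 against 90.0 to 160.2 CPM with vehicle) and melanocytes (4.11 to 9.78 CPM with IL-23 against 20.6 to 47.9 CPM with vehicle) were lower in every IL-23 library than in any vehicle library, and those of leukocytes were higher (59.2 to 314 CPM with IL-23 against 30.5 to 53.0 CPM with vehicle). Without the TMM factors (1.089 and 0.848), the leukocyte sum of vehicle library 59 lay above that of IL-23 library 25. Over both routes all 4 leukocyte markers (Ptprc, Cd3e, Itgam, Cd68) were called higher with TMM. With plain library sizes, and with the scaling to 9 epithelial genes, 3 were. In oral mice 3 were called higher with TMM and 1 with either of the other scalings. No listed marker was at 0 in all libraries of a side. In bulk samples, fewer cells of a type and less RNA per cell cannot be told apart, and the part these mixtures play in the results below was not tested.

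One IL-23 library of the intraperitoneal group, number 28, stood apart. Its leukocyte markers summed to 314 CPM, against 59.2 to 109 CPM in the other 7 IL-23 libraries. Without library 28, 3 of the 4 leukocyte markers were called higher over both routes with TMM. Its fibroblast markers (Col1a1, Col3a1, Pdgfra) summed to 2728 CPM, against 417 to 873 CPM in those 7. Values without it are given where it decides the call of a member or changes a count given for the lists below.

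Of the 10 genes, promoters of the cadherins were left out here and none was found for Pkp1 and Pkp3. Jup and Dsp, the plaque and linker genes, both rose with IL-23 in each route, and the promoter windows of these 2 genes are shown. Each runs 5′ to 3′ on the gene's strand, from 250 bases before to 50 bases after a RefSeq start site in GRCm38.p6, with capitals marking GC boxes (GGGCGG, or CCGCCC where it lies on the other strand) and CCAAT boxes (CCAAT). The Jup window is chr11:100397741-100398040, minus strand, and the Dsp window is chr13:38151044-38151343, plus strand. For Dsp that site is the outermost start of the gene, and for Jup, going by the window, it lies 49 bases inside it.
Jup: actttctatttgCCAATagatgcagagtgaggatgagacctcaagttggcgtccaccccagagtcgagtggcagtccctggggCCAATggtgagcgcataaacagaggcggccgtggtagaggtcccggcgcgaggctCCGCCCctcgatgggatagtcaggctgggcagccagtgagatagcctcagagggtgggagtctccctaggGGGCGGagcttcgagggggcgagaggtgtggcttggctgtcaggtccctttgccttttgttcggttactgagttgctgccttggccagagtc
Dsp: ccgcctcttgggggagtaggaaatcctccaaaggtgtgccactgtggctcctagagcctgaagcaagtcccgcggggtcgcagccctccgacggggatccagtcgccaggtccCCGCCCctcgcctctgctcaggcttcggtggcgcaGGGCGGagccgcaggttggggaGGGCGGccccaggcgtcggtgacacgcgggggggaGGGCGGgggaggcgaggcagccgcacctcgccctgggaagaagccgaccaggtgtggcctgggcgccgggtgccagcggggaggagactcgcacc
The Jup window held 2 GC boxes and 2 CCAAT boxes, and the Dsp window held 4 GC boxes and no CCAAT box, counting both strands. Of all 32851 promoter windows of this length in the table, 35.7% held a GC box and 37.4% a CCAAT box. Both windows were richer in G and C (60.7% for Jup and 73.0% for Dsp) than the median of all windows, 52.7%. Neither held a grainyhead-like motif (AACNGGTT, in 2.09% of windows), an AP-1 motif (TGANTCA, 7.81%), a STAT3 motif (TTCCNGGAA, 1.15%) or a TATA box (TATAAA, 13.6%), which says only that these letters are not in these windows.

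With IL-23, 7 of the 10 desmosome genes rose, 1 fell and 2 were not called, in oral mice, in intraperitoneal mice and over both routes. Without library 28, 9 genes rose in intraperitoneal mice (with Dsg1a and Dsc3) and 8 over both routes (with Dsg1a). The largest rise was that of Dsc1, 3.75-fold over both routes, and the gene that fell was Dsg2, 2.08-fold lower. The background was broad: of all genes tested, 63.3% were called in oral mice (29.2% higher, 34% lower), 61.7% in intraperitoneal mice (30.8% higher, 30.9% lower) and 73.6% over both routes (34.9% higher, 38.7% lower). The median log2 fold change of the 10 genes was 0.63 in oral mice, 0.70 in intraperitoneal mice and 0.67 over both routes, beside -0.06, -0.02 and -0.04 over all genes tested. As a share of all counts, the 10 genes together took 0.859% to 1.2% in IL-23 libraries and 0.688% to 0.854% in vehicle libraries.

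**Figure D1:**
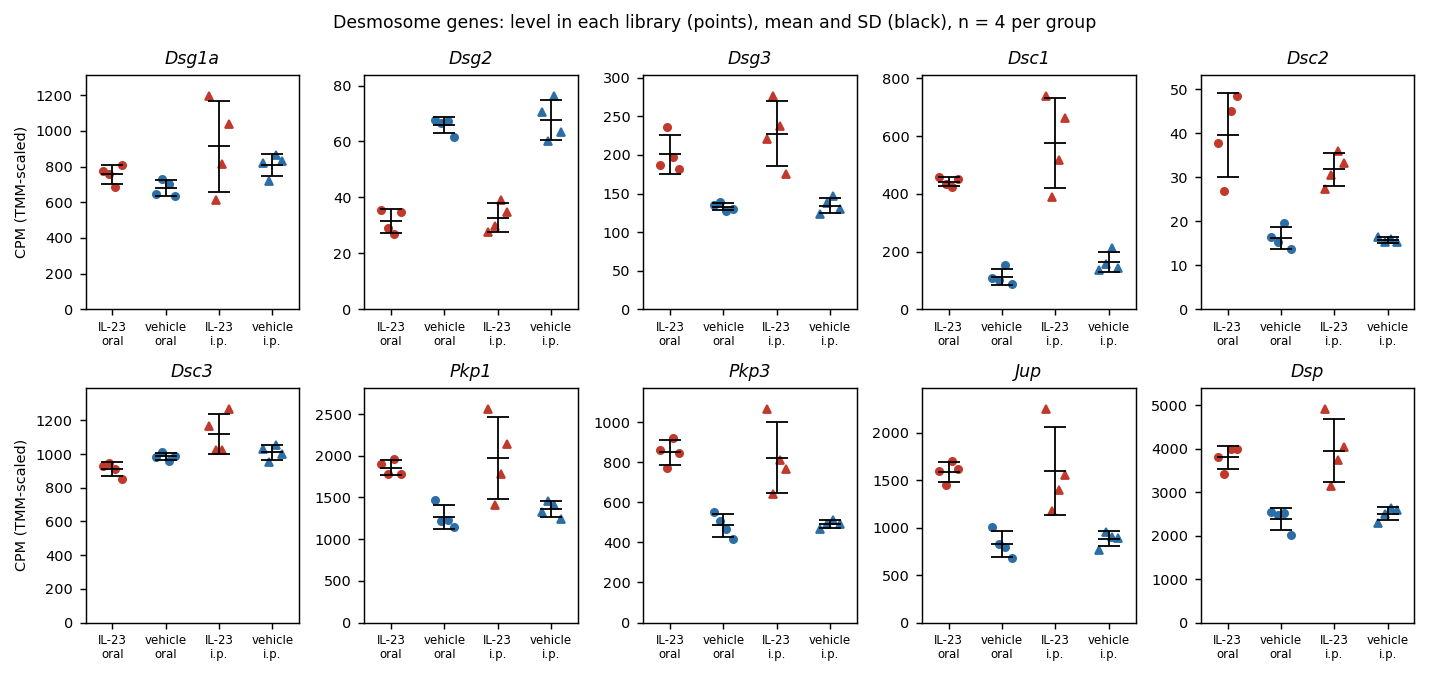
Level of each desmosome gene in CPM (y axis, from 0, a scale of its own per panel) in the 16 libraries, with points for libraries and black marks for the mean and SD of 4 per group. Dsc1 stands at 388 to 739 CPM in IL-23 libraries and 85.8 to 212 CPM in vehicle libraries, while Dsg2 stands at 26.8 to 39.0 CPM with IL-23 and 60.3 to 76.3 CPM with vehicle.

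The desmogleins moved in different directions. Dsg2 (gene ID 13511), the widely expressed desmoglein, had 35.6, 29.1, 26.8 and 34.9 CPM in the oral IL-23 libraries, against 67.7, 66.6, 67.3 and 61.6 CPM in the oral vehicle libraries. In intraperitoneal mice it had 27.7, 29.6, 39.0 and 34.7 CPM with IL-23, against 70.7, 60.3, 76.3 and 63.4 CPM with vehicle. Every IL-23 library was below every vehicle library. Over both routes Dsg2 averaged 32.2 ± 4.42 CPM with IL-23 and 66.7 ± 5.18 CPM with vehicle (SD, n = 8 each). The log2 fold change was -1.05 ± 0.08 (SE; edgeR adjusted p = 4.71e-09). It rested on 171 to 328 counts per IL-23 library and 457 to 1081 per vehicle library. The simple epithelium markers summed to low levels, 3.81 to 6.32 CPM in IL-23 libraries and 10.96 to 14.8 CPM in vehicle libraries. Of the 4, Krt7 and Krt8 fell over both routes (log2 -1.90 and -1.83), Krt19 was not called (log2 0.10) and Krt18 was under the filter on low counts.

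Dsg3 (13512), the desmoglein of the deep layers and the autoantigen of pemphigus vulgaris in humans, had 187, 237, 198 and 181 CPM in oral IL-23 libraries, against 135, 139, 128 and 130.1 CPM in oral vehicle libraries. With intraperitoneal dosing it had 220.2, 277, 238 and 175 CPM with IL-23, against 123, 138, 146 and 130.2 CPM with vehicle. No IL-23 library overlapped a vehicle library. The log2 fold change was 0.60 ± 0.11 in oral mice (SE; edgeR adjusted p = 0.000236), 0.76 ± 0.11 in intraperitoneal mice (2.64e-05) and 0.68 ± 0.08 over both routes (8.68e-07).

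Dsg1a (13510), a mouse copy of the desmoglein that bacterial exfoliative toxins cut, had 775, 756, 685 and 809 CPM in oral IL-23 libraries, against 648, 731, 705 and 633 CPM in oral vehicle libraries. The intraperitoneal values were 1197, 612, 815 and 1036 CPM with IL-23, against 819, 719, 865 and 831 CPM with vehicle. The groups overlapped in both routes, and the 4 intraperitoneal IL-23 libraries held both the lowest and the highest value of all 16. The log2 fold change over both routes was 0.17 ± 0.10, with a 95% interval of -0.05 to 0.39 (edgeR adjusted p = 0.156). Without library 28, which held that lowest value, it was 0.27 and called over both routes (adjusted p = 0.00445), and 0.35 in intraperitoneal mice (0.0127).

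Mice carry 3 copies of Dsg1 side by side. Of the 50-base windows in Dsg1a's annotated exons, 35.0% also occur in another gene, Dsg1b and Dsg1c among them, and 48.9% of those of Dsg1b do. How the submitters counted reads that fit more than 1 place is not given in the sources used here, so the split between copies is uncertain. Dsg1b had 104, 105, 118 and 132 CPM in oral IL-23 libraries, against 55.9, 51.9, 55.9 and 43.4 CPM in oral vehicle libraries. In intraperitoneal mice it had 181, 99.2, 118 and 147 CPM with IL-23, against 53.7, 57.4, 75.8 and 65.2 CPM with vehicle. It rose 2.18-fold over both routes (log2 1.13 ± 0.11, edgeR adjusted p = 1.03e-07), with no overlap of libraries. Its share of the counts of the 3 copies was 11.8% to 14.6% in IL-23 libraries and 6.15% to 8.04% in vehicle libraries. With the 3 copies summed, a choice made after the data were seen, the log2 fold change was 0.26 over both routes (adjusted p = 0.0297) and was not called in oral mice (0.25, adjusted p = 0.136) or intraperitoneal mice (0.27, adjusted p = 0.118).

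Among the desmocollins, Dsc1 (13505), the form of the outer layers, had 458, 435, 423 and 451 CPM in oral IL-23 libraries, against 107, 101, 152 and 85.8 CPM in oral vehicle libraries. With intraperitoneal dosing it had 739, 388, 519 and 661 CPM with IL-23, against 136, 158, 212 and 141 CPM with vehicle. The lowest IL-23 library lay above the highest vehicle library. The log2 fold change was 1.98 ± 0.20 in oral mice (SE; edgeR adjusted p = 3.29e-07), 1.83 ± 0.20 in intraperitoneal mice (8.88e-07) and 1.91 ± 0.14 over both routes (2.97e-09).

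Dsc2 (13506), the widely expressed desmocollin, had 37.8, 26.8, 45.0 and 48.5 CPM in oral IL-23 libraries, against 16.5, 15.2, 19.6 and 13.8 CPM in oral vehicle libraries. The intraperitoneal values were 27.4, 30.5, 36.0 and 33.3 CPM with IL-23, against 16.5, 15.3, 15.9 and 15.2 CPM with vehicle. All 8 IL-23 libraries were above all 8 vehicle libraries, the reverse of Dsg2. Dsc2 rose 2.21-fold over both routes (log2 1.14 ± 0.11, edgeR adjusted p = 7.58e-08).

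Dsc3 (13507), the basal desmocollin, had 930.1, 949, 914 and 851 CPM in oral IL-23 libraries, against 985, 1011, 959 and 988 CPM in oral vehicle libraries. In intraperitoneal mice it had 1165, 1027, 1022 and 1266 CPM with IL-23, against 1028, 955, 1055 and 999 CPM with vehicle. In oral mice all 4 IL-23 libraries lay just under all 4 vehicle libraries, while in intraperitoneal mice the groups overlapped. Neither difference was called by edgeR: the log2 fold change was -0.11 ± 0.08 in oral mice (adjusted p = 0.224) and 0.15 ± 0.08 in intraperitoneal mice (adjusted p = 0.114). Without library 28 the intraperitoneal value was 0.21 and was called (adjusted p = 0.0417), and by DESeq2 it was 0.17 (adjusted p = 0.028). Over both routes it was 0.02 ± 0.06 with a 95% interval of -0.10 to 0.14 (adjusted p = 0.784).

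On the inner side of the membrane, plakoglobin (Jup, 16480), the plaque protein that desmosomes share with adherens junctions, had 1591, 1444, 1697 and 1613 CPM in oral IL-23 libraries, against 1004, 832, 796 and 677 CPM in oral vehicle libraries. With intraperitoneal dosing it had 2248, 1174, 1399.5 and 1557 CPM with IL-23, against 769, 956, 904 and 893 CPM with vehicle. The groups did not overlap. Jup averaged 1590.4 ± 311 CPM with IL-23 and 854 ± 107 CPM with vehicle (SD, n = 8 each). Its log2 fold change was 0.90 ± 0.11 (SE; edgeR adjusted p = 1.8e-06).

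Desmoplakin (Dsp, 109620), the link to keratin, was the member with the most reads. It had 3807, 3419, 3991 and 3987 CPM in oral IL-23 libraries, against 2535, 2487, 2518 and 2012 CPM in oral vehicle libraries. The intraperitoneal values were 4914, 3148, 3743 and 4038 CPM with IL-23, against 2293, 2491, 2648 and 2588 CPM with vehicle. Again no IL-23 library overlapped a vehicle library. Dsp averaged 3881 ± 520 CPM with IL-23 and 2447 ± 203 CPM with vehicle (SD, n = 8 each). Its log2 fold change was 0.67 ± 0.09 (SE; edgeR adjusted p = 2.68e-06).

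The plakophilins cluster the cadherins and recruit desmoplakin. Pkp3 (56460), found through all living layers, had 862, 771, 919 and 845 CPM in oral IL-23 libraries, against 551, 507, 467 and 416 CPM in oral vehicle libraries. In intraperitoneal mice it had 1065, 642, 814 and 767 CPM with IL-23, against 467, 493, 513 and 492 CPM with vehicle. The groups did not overlap, and the log2 fold change over both routes was 0.78 ± 0.09 (edgeR adjusted p = 5.16e-07). Pkp1 (18772), the plakophilin lost in human ectodermal dysplasia with skin fragility, had 1906, 1788, 1958 and 1778 CPM in oral IL-23 libraries, against 1472, 1219.9, 1227 and 1142 CPM in oral vehicle libraries. With intraperitoneal dosing it had 2559, 1409, 1782 and 2139 CPM with IL-23, against 1326, 1462, 1411 and 1237 CPM with vehicle. Pkp1 groups did not overlap in oral mice but did in intraperitoneal mice, where library 28 (1409 CPM) lay inside the vehicle range. Its rise was the smallest called, with a log2 fold change of 0.55 ± 0.10 over both routes (adjusted p = 9.48e-05), and 0.54 ± 0.14 in intraperitoneal mice (adjusted p = 0.00325).

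**Figure D2:**
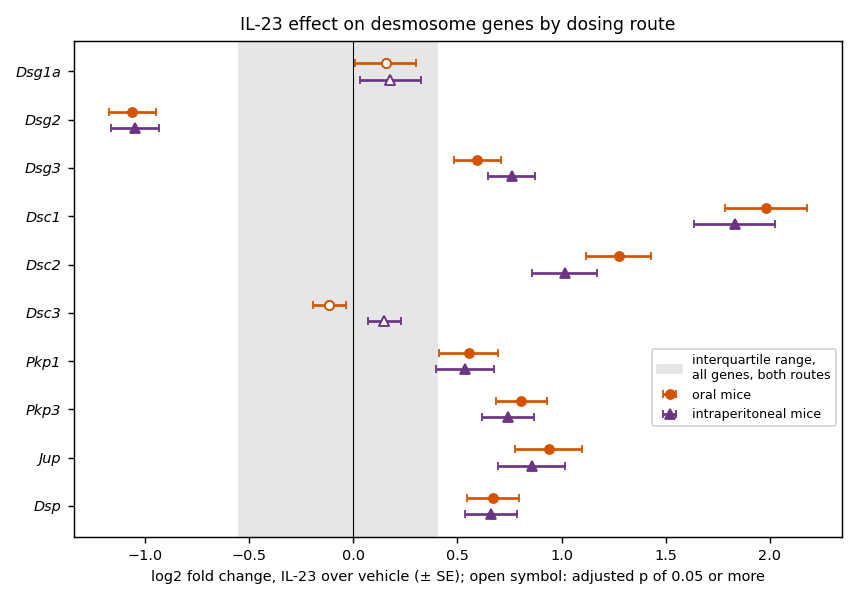
Log2 fold change of each desmosome gene, IL-23 over vehicle (x axis), in oral and in intraperitoneal mice, with SE bars from the edgeR fit, a grey band for the interquartile range of all genes over both routes (-0.55 to 0.40) and open symbols for an adjusted p of 0.05 or more. Dsc1 lies farthest right in both routes (1.98 and 1.83), Dsg2 is the gene called left of 0 (-1.06 and -1.05), and Dsg1a and Dsc3 are open in both.

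Counting libraries without a model, 7 of the 10 genes had all 4 IL-23 libraries above all 4 vehicle libraries in oral mice and 2 had them below (Dsg2 and Dsc3), where 59.7% of all genes tested did not overlap (27.9% above, 31.8% below). In intraperitoneal mice 6 lay above and 1 below, beside 51% of all genes (25.1% above, 25.9% below). Over both routes, with 8 libraries a side, 6 lay above and 1 below, beside 38.3% of all genes (19% above, 19.2% below). Pkp1 is the called gene that overlapped.

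The sizes of the rises in the 2 routes were close for several genes. Dsp had a log2 fold change of 0.67 ± 0.12 in oral mice and 0.66 ± 0.12 in intraperitoneal mice (SE, n = 4 per group). Jup had 0.94 ± 0.16 in oral mice and 0.86 ± 0.16 in intraperitoneal mice, and Pkp3 had 0.81 ± 0.12 in oral mice and 0.74 ± 0.12 in intraperitoneal mice. The widest gap among the risers was that of Dsc2, with 1.27 ± 0.15 in oral mice and 1.02 ± 0.16 in intraperitoneal mice. The IL-23 effect was compared between routes by its own test. Of the 10 genes, edgeR called 0 for the difference of the effect (intraperitoneal minus oral), and the log2 differences ran from -0.26 to 0.26. By limma-voom and DESeq2 the count was also 0, and 1 gene, Dsc3, had an unadjusted p under 0.05 (0.26 ± 0.11, unadjusted p = 0.0327, adjusted p = 0.875). The route effect (intraperitoneal minus oral) was called by edgeR for 0 of the 10 genes in IL-23 mice (log2 -0.31 to 0.38) and 0 in vehicle mice (-0.05 to 0.54), with 1 gene at an unadjusted p under 0.05 in each. In vehicle mice that gene was Dsc1, which had the largest log2 value there, 0.54. In IL-23 mice that gene was Dsc3, higher in all 4 intraperitoneal libraries than in any oral library (log2 0.30 ± 0.08, edgeR adjusted p = 0.26). DESeq2 called Dsc3 in that contrast (adjusted p = 0.0252). Over all genes tested, edgeR called 0% for each of these 3 contrasts, with 796 genes for the difference of the effect, 1874 for the route in IL-23 mice and 1087 for the route in vehicle mice at an unadjusted p under 0.05, while DESeq2 called 1, 57 and 1 genes in that order and limma-voom 0 in each. A p that misses the threshold does not show that the routes act alike.

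Compared per kilobase of annotated exon, desmoplakin and Pkp1 were the most abundant of the 10 transcripts, at 402 ± 53.8 and 381 ± 66.3 CPM per kilobase with IL-23, and 253 ± 21.1 and 261 ± 24.8 with vehicle (SD, n = 8), and the pair did not differ beyond its spread. In IL-23 libraries the next by mean were Jup (247 ± 48.3), Pkp3 (231 ± 34.2), Dsc3 (188 ± 25.7), Dsg1a (147 ± 33.5) and Dsc1 (101 ± 24.8). Neighbours in that order did not differ beyond their spread. In vehicle libraries Dsc3 (185 ± 6.27) came next, ahead of Pkp3 (135 ± 11.01), Jup (133 ± 16.6) and Dsg1a (131 ± 15.1), which did not differ beyond their spread, and then Dsc1 (27.1 ± 7.91). Each spread here is over libraries, and the order of genes within a library was not tested. Dsg3 stood at 30.7 ± 5.02 CPM per kilobase with IL-23 and 19.2 ± 1.04 with vehicle. The widely expressed forms were last and changed places: Dsc2 was at 6.76 ± 1.496 and Dsg2 at 3.89 ± 0.53 with IL-23, while Dsc2 was at 3.03 ± 0.32 and Dsg2 at 8.07 ± 0.63 with vehicle.

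The make-up of the listed cadherins differed between IL-23 and vehicle libraries. Of the 3 desmocollins summed per kilobase, Dsc1 made up 33.8% ± 3.33 with IL-23 and 12.5% ± 3.04 with vehicle (SD, n = 8 each), and ranged over 28.2% to 39.9% in IL-23 libraries and 8.399% to 17.5% in vehicle libraries. Dsc3 made up 63.8% ± 3.20 with IL-23 and 86.1% ± 3.04 with vehicle, although its own level was not called. Of Dsg1a, Dsg2 and Dsg3 summed per kilobase, Dsg1a made up 80.4% ± 4.77 with IL-23 and 82.7% ± 1.52 with vehicle. Dsg3 made up 17.4% ± 4.58 with IL-23 and 12.2% ± 1.22 with vehicle, and Dsg2 made up 2.19% ± 0.405 with IL-23 and 5.13% ± 0.416 with vehicle. These shares leave out Dsg1b, which stood at 31.6 ± 6.92 CPM per kilobase with IL-23 and 14.5 ± 2.42 with vehicle. Of Pkp1 and Pkp3 alone, without Pkp2 and Pkp4, Pkp3 stood at 37.85% ± 2.12 with IL-23 and 34.1% ± 1.498 with vehicle.

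**Figure D3:**
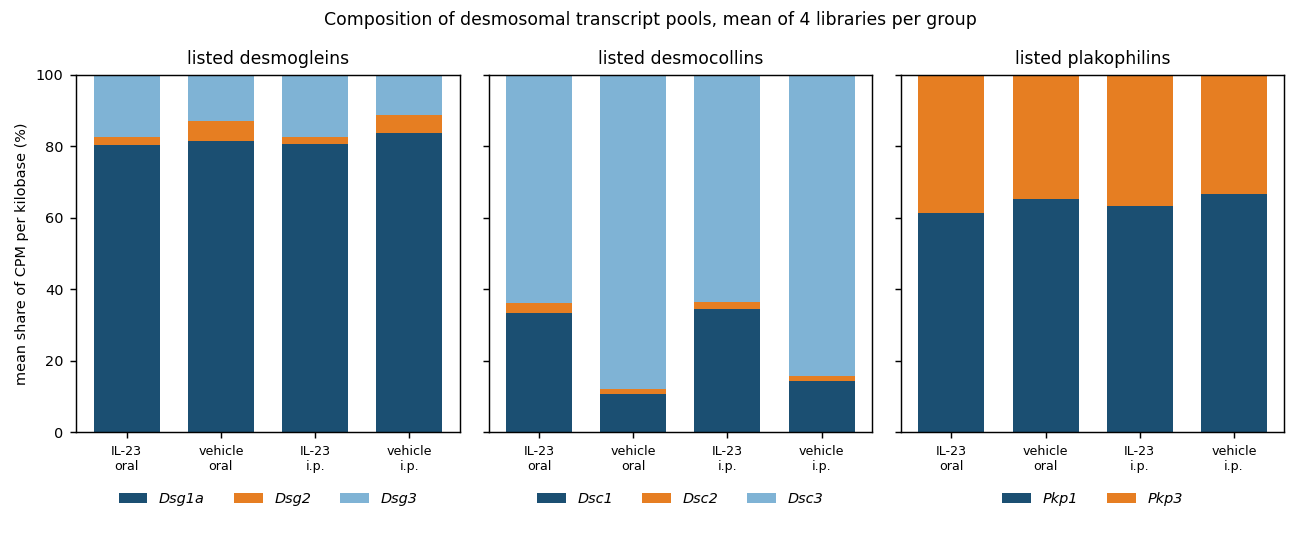
Share of each gene in the sum of the listed members of its family (y axis, percent of CPM per kilobase, mean of 4 libraries) for the desmogleins (Dsg1a, Dsg2, Dsg3), desmocollins (Dsc1, Dsc2, Dsc3) and plakophilins (Pkp1, Pkp3) in the 4 groups. Dsg1b, Dsg1c, Pkp2 and Pkp4 are not in the sums. The Dsc1 band is wider in both IL-23 groups (33.2% oral, 34.4% intraperitoneal) than in the vehicle groups (10.6% oral, 14.4% intraperitoneal).

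These shifts were tested as 8 log2 ratios between members within a library, which do not depend on the scaling of libraries, with a 2-sided exact permutation test that kept the routes apart. The smallest p the 4900 arrangements allow is 0.000408, and p-values were adjusted over the 8 ratios. Among the desmogleins, as among the desmocollins, each ratio follows from the others, so the 8 are not independent. Over both routes, Dsc3 over Dsc1 differed by -1.90 between IL-23 and vehicle libraries, Dsc2 over Dsc3 by 1.12, Dsg2 over Dsg1a by -1.20 and Dsg2 over Dsg3 by -1.72, each at that smallest p (adjusted p = 0.000816, exact permutation). The ratio of Dsc2 to Dsc1 differed by -0.78 (exact permutation p = 0.000816, adjusted 0.00131), and that of Dsg3 to Dsg1a by 0.52 (p = 0.00245, adjusted 0.00245). Smaller differences were found inside the plaque: Pkp3 over Pkp1 by 0.23 and Dsp over Jup by -0.23, each with an exact permutation p of 0.00204 (adjusted 0.00233). In oral mice all 8 ratios were at the smallest p that 4 against 4 allows, 0.0286 (exact permutation, adjusted 0.0286). In intraperitoneal mice the same exact permutation test gave adjusted p-values of 0.0571 or more, so none passed there. In that route 4 ratios were at the smallest p of 0.0286: Dsg2 over Dsg1a, Dsg2 over Dsg3, Dsc3 over Dsc1 and Dsc2 over Dsc3. With 4 of 8 ratios at the smallest p, the adjustment holds them at 0.0571 whatever their size, so this outcome does not set the routes apart. Their differences were -1.19, -1.79, -1.67 and 0.86 in that order, beside -1.22, -1.65, -2.13 and 1.37 in oral mice.

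Within the groups, most members moved together from library to library. Of the 8 IL-23 libraries, number 25 had the highest level of 6 members (Dsg1a, Dsc1, Pkp1, Pkp3, Jup and Dsp), and number 28 had the lowest level of the same 6 and the highest of Dsg3. The members summed to 14161 CPM in library 25 and 8737 CPM in library 28, against 9853 to 11709 CPM in the other 6. The suprabasal markers followed the same order at the ends, with 45193 CPM in library 25, 19646 CPM in library 28 and 26073 to 31910 CPM in the other 6; what part they play was not tested. As a description over the 16 libraries, the deviation of each gene from its group mean was correlated with the mean deviation of the 10, of which each gene is itself a part. Pearson's r was 0.81 to 0.95 for those 6 genes, 0.40 for Dsc3, 0.26 for Dsc2, 0.19 for Dsg2 and -0.42 for Dsg3. Without library 28, r was 0.59 (Dsg1a) to 0.93 (Dsp) for the 6 genes, 0.15 for Dsc3, 0.29 for Dsc2, 0.02 for Dsg2 and -0.03 for Dsg3.

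The 5 genes outside the list whose deviations were most like the members' mean were Ggct (r = 0.96), Slc22a23 (0.96), Calm4 (0.95), Blnk (0.95) and Hal (0.94), over 16 libraries that share the TMM scaling. Hal makes urocanic acid in the outer epidermis, Ggct acts in glutathione turnover, and Calm4 is a calmodulin-like protein. Without library 28 these r were 0.89 to 0.93.

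Other desmosomal and neighbouring junction genes were read from lists chosen with earlier results of these data known. Of 10 further desmosome genes found, 9 were tested. Over both routes 6 rose, 1 fell and 2 were not called, with a median log2 fold change of 0.59. Over all genes tested the median was -0.04, with 34.9% called higher and 38.7% lower. Without library 28, 7 of the 9 rose over both routes, 1 fell and 1 was not called. Cdsn, corneodesmosin of the cornified layer, averaged 666 ± 242 CPM with IL-23 and 223 ± 45.3 CPM with vehicle (log2 1.58 ± 0.20, edgeR adjusted p = 1.34e-06). Pkp2, the plakophilin of heart and simple epithelia, averaged 3.20 ± 0.851 CPM with IL-23 and 6.46 ± 1.46 CPM with vehicle (log2 -0.99 ± 0.17, adjusted p = 6.77e-05). Like Dsg2, it was lower in every IL-23 library than in any vehicle library. Heart muscle markers (Myh6, Tnnt2, Nppa) summed to 6.38 to 8.29 CPM with IL-23 and 8.41 to 14.3 CPM with vehicle. Of these 3 markers, 1 passed the filter on low counts.

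The list of hemidesmosome genes, which anchor basal keratinocytes to the basement membrane, went the other way. Of its 9 genes, 8 fell over both routes and 1 was not called, beside 38.7% of all genes called lower. The log2 fold changes of the 9 ran from -1.79 to -0.24, with a median of -0.60. Dst, whose epithelial form is the plakin that binds keratin there, averaged 109.8 ± 18.2 CPM with IL-23 and 380.4 ± 35.3 CPM with vehicle (log2 -1.79 ± 0.09, edgeR adjusted p = 9.09e-11). Dst also makes muscle and nerve forms, and skeletal muscle markers were lower with IL-23 too; their part was not tested. Col17a1, the transmembrane collagen of the hemidesmosome, averaged 1239 ± 102 CPM with IL-23 and 2945 ± 247 CPM with vehicle (log2 -1.25 ± 0.06, adjusted p = 6.6e-11). Lama3, a laminin-332 chain, averaged 60.03 ± 13.2 CPM with IL-23 and 127 ± 9.53 CPM with vehicle (log2 -1.08 ± 0.11, adjusted p = 8.61e-08).

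Among 10 adherens junction genes, 7 rose over both routes, 1 fell and 2 were not called, with a median of 0.29, beside 73.6% of all genes called. In oral mice 5 rose and 5 were not called, beside 29.2% of all genes called higher. Without library 28, 7 rose over both routes, 0 fell and 3 were not called. The count over both routes also depended on the scaling. With plain library sizes and with a scaling to 9 epithelial genes, 4 were called higher and 3 lower, with medians of 0.08 and 0.03. The 9 scaling genes include Cdh1, which is also in this list. With TMM, 5 of the 9 were themselves called higher over both routes and 2 lower (log2 -0.545 to 1.28). Without library 28, 6 of the 9 were called higher and 1 lower. The nectin genes Pvrl4 and Pvrl1 and the P-cadherin gene Cdh3 had the largest changes. Pvrl4 averaged 292 ± 60.3 CPM with IL-23 and 119 ± 15.1 CPM with vehicle (log2 1.30 ± 0.11, edgeR adjusted p = 1.73e-08). Pvrl1 averaged 227 ± 45.7 CPM with IL-23 and 105 ± 12.5 CPM with vehicle (log2 1.105 ± 0.11, adjusted p = 1.05e-07). Cdh3, which like Dsc3 and Dsg3 belongs to the deep layer, averaged 158 ± 17.6 CPM with IL-23 and 76.0 ± 6.69 CPM with vehicle (log2 1.05 ± 0.07, adjusted p = 9.19e-10).

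**Figure D4:**
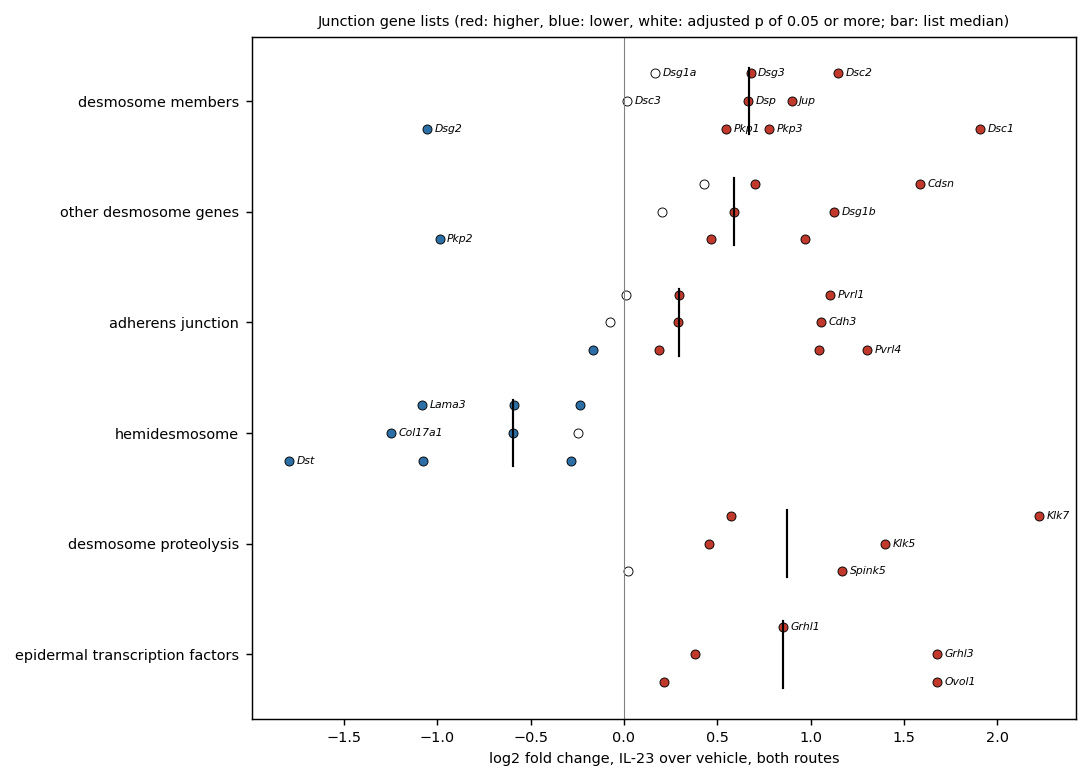
Log2 fold change over both routes, IL-23 over vehicle (x axis), of each gene in the desmosome and neighbouring lists, with red for called higher, blue for called lower, white for not called and a bar at each list's median. The desmosome members sit mostly right of 0 (median 0.67) and the hemidesmosome genes left of it (median -0.60).

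A further list held genes for proteases that cut desmosomal proteins and for their inhibitor. Of 6 tested, 5 rose over both routes, beside 34.9% of all genes called higher, and Adam10 was not called (log2 0.02). The median was 0.87. Without library 28, 7 passed the filter on low counts and 6 of them rose over both routes. Klk7, a kallikrein protease that cleaves corneodesmosin and Dsc1 in human skin, averaged 1319 ± 337 CPM with IL-23 and 286 ± 62.7 CPM with vehicle (log2 2.22 ± 0.15, edgeR adjusted p = 1.02e-09). Klk5, which activates Klk7 in human skin, averaged 142 ± 42.7 CPM with IL-23 and 54.2 ± 9.95 CPM with vehicle (log2 1.40 ± 0.16, adjusted p = 5.11e-07). Spink5, their inhibitor, averaged 662 ± 125 CPM with IL-23 and 294 ± 35.3 CPM with vehicle (log2 1.17 ± 0.11, adjusted p = 5.85e-08).

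The 5 listed transcription factors of epidermal differentiation rose over both routes with TMM scaling, with a median of 0.85, beside 34.9% of all genes called higher. In oral mice 3 of the 5 rose, beside 29.2% of all genes, and in intraperitoneal mice 4, beside 30.8%. Without library 28, all 5 rose in each route. With plain library sizes and with the epithelial scaling, which itself uses Trp63, 3 of the 5 were called over both routes. Of all 14671 genes tested, 3515 and 2945 were called higher under these scalings in that order, against 5117 with TMM. The smallest change with TMM was that of Trp63 (log2 0.22). Grhl3, a grainyhead-like factor of barrier formation, averaged 158 ± 28.4 CPM with IL-23 and 50.3 ± 14.3 CPM with vehicle (log2 1.68 ± 0.11, edgeR adjusted p = 8.26e-10). Ovol1 averaged 187 ± 65.1 CPM with IL-23 and 57.9 ± 9.45 CPM with vehicle (log2 1.67 ± 0.14, adjusted p = 1.52e-08). Grhl1, which activates Dsg1 in mouse epidermis, averaged 467 ± 72.2 CPM with IL-23 and 259 ± 23.6 CPM with vehicle (log2 0.85 ± 0.08, adjusted p = 4.83e-08).

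The choice of scaling shifted the 10 genes in the same direction, by similar but not equal amounts. With plain library sizes the median of all genes shifted by -0.21 over both routes, and with a scaling to 9 epithelial genes it shifted by -0.26. The calls over both routes were 5117 higher and 5675 lower with TMM, 3515 higher and 7516 lower with plain sizes, and 2945 higher and 7663 lower with the epithelial scaling. The 7 genes that rose over both routes were still called higher under both, from 0.33 (Pkp1) to 1.70 (Dsc1) with plain sizes and from 0.27 (Pkp1) to 1.63 (Dsc1) with the epithelial scaling, and Dsg2 was still lower (-1.26 and -1.31). The genes named from the other lists kept their direction and call over both routes under both scalings. Dsg1a and Dsc3 turned negative over both routes, Dsg1a at -0.05 and -0.12 without a call, and Dsc3 at -0.19 (adjusted p = 0.00531) and -0.25 (adjusted p = 0.0029), called lower. In oral mice Dsc3 was called lower under both as well, at -0.31 (adjusted p = 0.00242) and -0.39 (adjusted p = 0.00162). Relative to the median of all genes, Dsc3 stood at 0.06, 0.06 and 0.05 under TMM, plain sizes and the epithelial scaling, and Dsc1 at 1.95, 1.95 and 1.93.

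**Figure D5:**
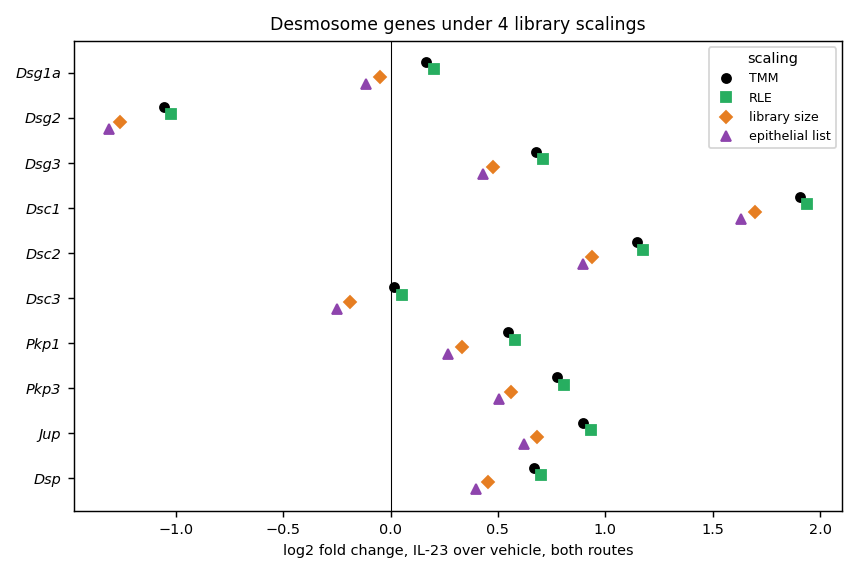
Log2 fold change of each desmosome gene over both routes, IL-23 over vehicle (x axis), under 4 ways of scaling the libraries. For all 10 genes the plain and epithelial points lie left of the TMM point, so that Dsc3 runs from 0.05 to -0.25 and Dsg1a from 0.20 to -0.12 across 0, while the other 8 genes stay on their side.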

How the data were processed

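Total RNA went into TruSeq Stranded Total RNA libraries that were read on a HiSeq 2500 (per the labels' protocols). The submitters' processing notes list FastQC, STAR, featureCounts (Subread 1.5.0) and GRCm38 without saying how they were used. For the annotation, the strand setting and multi-mapping reads, the sources used here give nothing. The deposited values are whole-number counts per gene for 16 libraries, with no scaling by the authors visible in them. Replicates are named by the number that opens each title.

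In R 4.3.3, edgeR 4.0.16 was run with TMM factors, filterByExpr (minimum count 10; 14671 genes kept) and glmQLFit on 4 group means, leaving 12 residual degrees of freedom, with 2-sided tests whose p-values were adjusted (Benjamini-Hochberg) across every tested gene. Each standard error is |log2 fold change| divided by the root of its quasi-likelihood F. The effect over both routes is the mean of the 2 route effects. DESeq2 1.42.0 and limma 3.58.1 (voom) were alternatives, as were other scalings, no filter and each library left out. Ratios between members used counts with 0.5 added. Levels per length used the merged exons of the gene annotation.

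The members, the lists and the rule for named genes were chosen with earlier results of these data known. The rule names the 10 members, up to 3 called genes of each other list with the largest absolute log2 fold change over both routes, and the 5 genes whose deviations from group means correlate best with the members' mean deviation. Positions and promoters are from RefSeq (GRCm38.p6); exon windows are from the GENCODE transcripts. No batch is labelled, and the precision given by depth shows in the counts per library.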

Additional observations from a re-analysis of the deposited data

Results flagged for a closer look

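The highest or lowest library of each group of 4 was set against the other 3, by its gap to the nearest divided by the group's range, for 72 sets of values; a ratio above 0.829 marks a library far from its group, which chance gives in about 1 of 20 such sets, and 3 were found here. Dsg2 in oral vehicle library 51 was at 61.6 CPM, against 66.6 to 67.7 CPM in the other 3 (ratio 0.829). Dsp in the same library was at 2012 CPM, against 2487 to 2535 CPM in the other 3 (ratio 0.907). The log2 ratio of Dsp to Jup in intraperitoneal IL-23 library 25 was 1.13, against 1.38 to 1.42 in the other 3 (ratio 0.837). No value of a group was replaced or left out for this reason.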

How the results depend on the processing

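No paired analysis was possible because no replicate number is shared between groups. With plain library sizes Dsg1a was at -0.040 in oral mice, -0.056 in intraperitoneal mice and -0.048 over both routes, and with the epithelial scaling at -0.12, -0.11 and -0.12. Dsc3 was at -0.069 in intraperitoneal mice and -0.19 over both routes with plain sizes, and at -0.10 and -0.25 with the epithelial scaling. Both scalings called 2 members lower in oral mice and over both routes (Dsg2 and Dsc3), where TMM called 1. Relative to the shifted median of all genes these values moved by under 0.1. Under the epithelial scaling the rise of Dsg3 in oral mice was no longer called (0.32, adjusted p = 0.0882). DESeq2 called 1 member higher for the route effect in IL-23 mice (Dsc3), against 0 by edgeR.

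With each library left out in turn, the count of members called higher was 7 in oral mice, 7 to 9 in intraperitoneal mice and 7 to 8 over both routes, and 1 was called lower each time. Dsc3 over both routes ran from -0.011 (without library 61 of the intraperitoneal IL-23 group) to 0.062; the cause was not tested. All 8 ratios over both routes kept their call, with adjusted p-values up to 0.0167 (exact permutation). Depth was lowest for Dsg2 and Dsc2, at 116 to 1081 counts per library.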
